A study of Mus musculus with 3 samples.

Results

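Heat shock proteins and their J-domain partners were examined in embryonic mouse mammary cells. The members were the genes whose single annotated symbol began with Hspa, Hspb, Hspd, Hspe, Hsph or Hsp90, or was Dnaja, Dnajb or Dnajc with a number, together with Hsf1, Hsf2, Bag3, Hspbp1 and Stip1 where measured. This gave 69 of the 17097 genes on the arrays, measured by 152 probe sets. For each gene the probe set with the highest mean was used. Hsf1, Hspa1a, Hsp90ab1 and Hspd1 were not analysed here.

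The RNA came from 1 group of 3 samples, each the pooled female embryos of a single litter at embryonic day 14, hybridised to its own array. The embryos carried Lgr5-IRES-GFP, a reporter in which green fluorescent protein is made from the Lgr5 locus. Cells were dissociated from epidermis and mammary gland with collagenase and hyaluronidase and sorted for high GFP and high CD49f, the integrin alpha 6 chain of basal epithelium. There was no second genotype, treatment or stage, so each gene was compared with a background measured on the same arrays, and the litters were compared with each other without a test. Per the labels, 813 or 2000 cells were sorted, without saying which litter had which number.

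Heat shock proteins are molecular chaperones that bind unfolded proteins. Hsp70 proteins work in cycles of ATP hydrolysis that J-domain (DnaJ) proteins start and nucleotide exchange factors such as Hsp110 end. Hsp90 finishes the folding of kinases and receptors, small heat shock proteins hold aggregating proteins, and the mitochondrial chaperonin Hsp60 folds proteins under its lid Hsp10. Many of these genes are expressed constitutively, and a subset is induced within minutes by the transcription factor Hsf1, which binds repeats of nGAAn called heat shock elements. Genes of the endoplasmic reticulum (ER) chaperones instead answer to ER stress through the ER stress response element.

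Values were log2 expression. Background was the 95th percentile of 74 olfactory and vomeronasal receptor genes on each array (6.14, 6.17 and 5.99 on replicates 1, 2 and 3), and a gene was called above background at a limma adjusted p under 0.05 over all genes. Replicates 1 and 2 were close (Pearson r = 0.994 over all probe sets, a median difference of 0.12 log2 units among genes above background, and matching quantiles). Replicate 3 stood apart (r = 0.942 and 0.944, with median differences of 0.41 and 0.40), and its median was 6.52 against 6.25 on each other array. The largest gap between quantiles was 0.02 for replicates 1 and 2, and 0.44 and 0.43 for replicate 3 against them. Whether all 3 arrays were normalized together is not given in the sources used here, so a difference on replicate 3 between litters and one from normalization cannot be told apart. All 8 markers of the sorted cells, such as Lgr5, Itga6, Trp63, Krt5 and Krt14, were above background. So were 8 of 9 dermal mesenchyme genes, such as Col1a1 and Col3a1, the collagen genes of fibroblasts.

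Of the 69 members, 49 (71.0%) were above background, against 55.1% of all genes tested. The median member lay 2.04 log2 units above the threshold, and the median gene 0.78. The share ran from 4 of 4 Dnaja genes to 2 of 7 small heat shock genes, with 8 of 10 Hsp70 genes, 2 of 3 Hsp110 genes, both Hsp90 genes, the single chaperonin gene measured (Hspe1), 8 of 12 Dnajb genes, 19 of 25 Dnajc genes and 3 of 5 regulators and co-chaperones between. The 20 other members did not pass the test. Of these, 4 (Bag3, Dnajb13, Dnajc18 and Dnajc21) had a mean over the threshold, by at most 0.59 log2 units. Among 40 tissue-restricted genes, 11 (27.5%) passed the same call, so above background, or detected, does not by itself mean expressed. For 12 members the probe sets lay on both sides of the threshold, so their call rests on the probe set chosen: Dnaja3, Dnaja4, Dnajb4, Dnajc2, Dnajc3, Dnajc11, Dnajc18, Dnajc19, Dnajc21, Dnajc22, Hspa1b and Hspbap1.

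**Figure D1:**
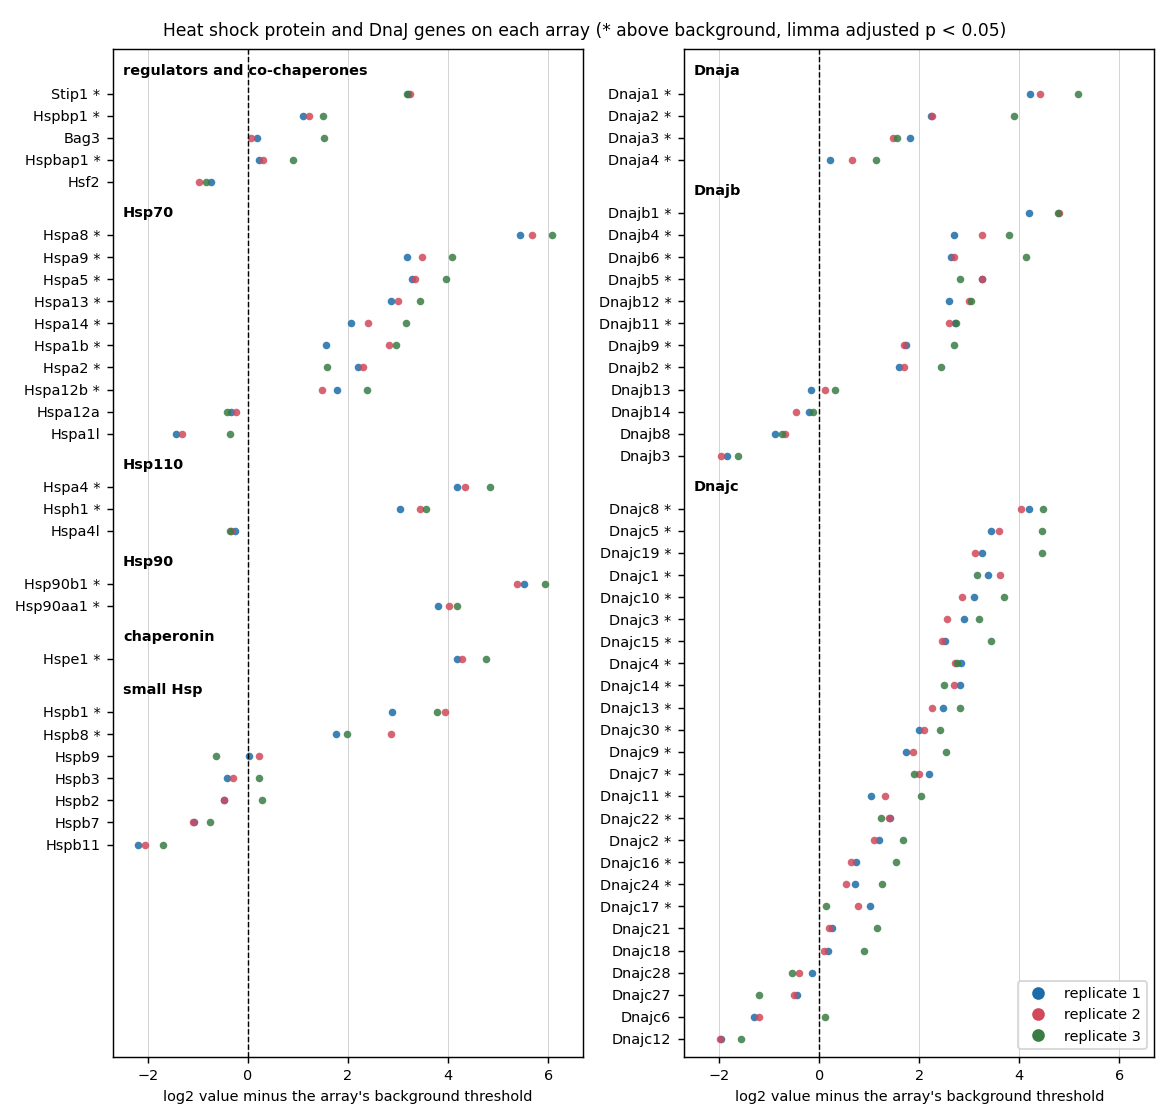
Log2 value minus the background threshold of its own array (horizontal axis, log2 units) for each of the 69 members, grouped by role; the 3 points of a gene are its 3 arrays, the dashed line is the threshold and an asterisk marks the 49 genes above background. Hspa8 and Hsp90b1 lie over 5 units to the right of the line on each array, while most small heat shock genes lie around or left of it.

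The Hsp70 genes of each main compartment were detected. Hspa8, the constitutive Hsc70 of the cytosol, gave 11.59, 11.84 and 12.07 (replicates 1 to 3 in this order here and in what follows), on average 5.73 above the threshold (limma adjusted p = 1.38e-05). Hspa5, the ER chaperone BiP, stood at 9.43, 9.51 and 9.94 (3.53 above the threshold, limma adjusted p = 6.05e-05). Hspa9, the mitochondrial mortalin, stood at 9.33, 9.64 and 10.06 (3.58 above, limma adjusted p = 7.65e-05). These probe sets were lowest on replicate 1 and highest on replicate 3, the array with the highest overall median, but the order depended on the probe set. The 3 other Hspa8 probe sets were highest on replicate 2 (11.72, 11.92 and 11.72 in the brightest of them), and 1 of Hspa9 was lowest on replicate 3 (8.42, 8.76 and 8.34).

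Hspa1b, which encodes the heat-inducible Hsp70, had 7.70, 8.98 and 8.95 (2.44 above the threshold, limma adjusted p = 0.000973). Replicate 1 was low and the other arrays were alike. The 2 other probe sets of Hspa1b lay below background on every array, with differences between replicates 2 and 1 of 0.04 and 0.13, and the mean of its probe sets was under the threshold (-0.28). Hspa1a is a nearly identical copy, so the signal may include its transcript.

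Of the further Hsp70 genes, Hspa13 (9.20 ± 0.22, SD, n = 3), a microsomal ATPase, and Hspa14 (8.20, 8.57 and 9.15), which acts at the ribosome, were above background. Hspa2, best known for its part in spermatogenesis, was above background as well (8.35, 8.48 and 7.57) and was lowest on replicate 3. Hspa12b, known from endothelium, stood at 7.97 ± 0.36, while the endothelial markers Cdh5, Kdr and Tek were not above background and Pecam1 was (8.12, 8.30 and 6.47). Pecam1 was lowest and Hspa12b highest on replicate 3. Hspa12a (5.77 ± 0.18) and Hspa1l (5.06 ± 0.50), a germ line form, were not above background.

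The Hsp110 proteins release nucleotide from Hsp70. Hspa4 (10.55 ± 0.25, SD, n = 3) and Hsph1 (9.19, 9.61 and 9.55) were above background, and Hspa4l (5.79 ± 0.13) was not. Hsp90aa1, the inducible cytosolic Hsp90, had 9.93, 10.19 and 10.18 (limma adjusted p = 2.58e-05), a spread of 0.14 (SD). Hsp90b1, the ER form Grp94, had 11.65, 11.54 and 11.92 (limma adjusted p = 1.38e-05). Hspe1, the Hsp10 lid of the mitochondrial chaperonin, had 10.32, 10.45 and 10.75 (limma adjusted p = 2.68e-05).

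Small heat shock genes divided into a detected pair and an undetected remainder. Hspb1, the Hsp27 gene of epithelia, had 9.02, 10.11 and 9.77 (3.53 above the threshold, limma adjusted p = 0.000121). Hspb8, which works with Bag3 in selective autophagy, had 7.91, 9.04 and 7.97 (2.20 above, limma adjusted p = 0.000672). Replicate 2 was highest for both, and Hspb8 was alike on the other arrays. Hspb2 (5.87 ± 0.34), Hspb3 (5.93 ± 0.24) and Hspb7 (5.12 ± 0.10), which are best known from muscle, were not above background, nor were the testis gene Hspb9 (5.97 ± 0.54) and Hspb11 (4.12 ± 0.18), which encodes an intraflagellar transport protein. Of 11 muscle markers 3 were above background (Myod1, Myh3 and Tnni1), and of 9 markers of the male germ line 2 (Prm1 and Tnp2).

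The class A J-domain proteins, which share the full domain layout of bacterial DnaJ, were all above background, the dimmer pair less securely. Dnaja1, a cytosolic partner of Hspa8, had 10.36, 10.59 and 11.17 (limma adjusted p = 4.32e-05). Dnaja2 had 8.38, 8.42 and 9.89, with replicate 3 far from the others, and the 2 other Dnaja2 probe sets gave 9.27 and 9.36 on that array. Dnaja3, the mitochondrial Tid1, had 7.96, 7.66 and 7.55, and Dnaja4 stood at 6.77 ± 0.39 (SD, n = 3). Dnaja4 did not pass against the 99th percentile of the receptor genes (limma adjusted p = 0.236) and lay below both other backgrounds tried, tissue-restricted genes (-0.41) and the brightest antigenomic control probe (-0.61). Dnaja3 did not pass against that control (limma adjusted p = 0.127).

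Among class B genes, Dnajb1, the Hsp40 induced together with Hsp70, had 10.34, 10.97 and 10.76 (4.59 above the threshold, limma adjusted p = 2.55e-05). Dnajb6, a suppressor of polyglutamine aggregation, had 8.77, 8.86 and 10.12. Its 3 other probe sets differed between replicate 3 and replicate 1 by far less, with 7.28, 7.42 and 7.42 in the brightest of them. The ER co-chaperone Dnajb11 varied little (8.79 ± 0.07, SD, n = 3), and Dnajb9, an ER stress gene, stood at 8.14 ± 0.46. Dnajb12, an ER membrane protein, stood at 8.97 ± 0.22, and Dnajb4 at 9.35 ± 0.48. Dnajb2, a neuronal co-chaperone, stood at 8.01 ± 0.36, and Dnajb5 had 9.40, 9.42 and 8.80. Dnajb3 (4.29 ± 0.08), Dnajb8 (5.33 ± 0.14) and Dnajb13 (6.20 ± 0.19), known from testis, were not above background, and neither was Dnajb14 (5.83 ± 0.12).

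Class C holds J-domain proteins of specialised function. Dnajc8, a splicing-associated protein, stood at 10.33 ± 0.13 (SD, n = 3), and Dnajc5, the cysteine string protein of vesicles, at 9.92 ± 0.46. The ER proteins Dnajc1, Dnajc3 and Dnajc10, the last a disulfide reductase, stood at 9.48 ± 0.32, 8.98 ± 0.23 and 9.32 ± 0.34. Dnajc19, of the mitochondrial protein import motor, had 9.40, 9.29 and 10.44, highest on replicate 3. Dnajc15, its relative, stood at 8.90 ± 0.46. Dnajc17 went the other way, with 7.16, 6.95 and 6.12, and it was above the threshold by 0.64 in the mean (limma adjusted p = 0.0277). It no longer passed without replicate 1 (adjusted p = 0.144) or without replicate 2 (adjusted p = 0.0740). Other probe sets of Dnajc17, also over the threshold in the mean, lacked the low replicate 3 (6.73, 6.55 and 6.56, and 6.34, 6.62 and 6.62). The mean of its probe sets passed (limma adjusted p = 0.00266). Dnajc13, of endosomes, stood at 8.62 ± 0.19, and Dnajc9, a histone chaperone, at 8.15 ± 0.34. The other class C genes above background were Dnajc2, Dnajc4, Dnajc7, Dnajc11, Dnajc14, Dnajc16, Dnajc22, Dnajc24 and Dnajc30, with means from 6.93 (Dnajc24) to 8.87 (Dnajc4). Dnajc18 (6.49 ± 0.34), Dnajc21 (6.64 ± 0.44) and Dnajc28 (5.74 ± 0.27) did not pass, although Dnajc21 passed with any single replicate left out (limma adjusted p of 0.0165 to 0.0426). Fits with 1 replicate left out rest on 2 arrays, and their adjusted p-values are not comparable with those of 3 arrays. For Dnaja1 the limma adjusted p was 4.32e-05 with 3 arrays and 1.02e-40 without replicate 2. The changed call of Dnajc21 thus says little about its level. Dnajc6, the neuronal auxilin (5.31 ± 0.69), Dnajc12 (4.27 ± 0.14) and Dnajc27 (5.38 ± 0.52) were not above background.

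Of the factors that direct the chaperones, Stip1, which couples Hsp70 to Hsp90, had 9.33, 9.41 and 9.17 (limma adjusted p = 3.77e-05). Hspbp1, a nucleotide exchange factor of Hsp70, had 7.25, 7.39 and 7.49 (limma adjusted p = 0.000763). The exchange factor Bag3 had 6.32, 6.24 and 7.50 and did not pass (limma adjusted p = 0.113). It passed without replicate 1 (adjusted p = 0.0224) or without replicate 2 (adjusted p = 0.0143), in fits of 2 arrays not comparable with the fit of 3. Hsf2, a heat shock transcription factor, had 5.40, 5.20 and 5.15, below the threshold on each array. Hspbap1, a partner of Hsp27, was at the limit of the test (6.58 ± 0.28, SD, n = 3, limma adjusted p = 0.0459). In the fits of 2 arrays it did not pass without replicate 1 (adjusted p = 0.0656) or without replicate 2 (adjusted p = 0.0792).

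The genes of other proteins that act with these chaperones were detected more widely, with 41 of 44 above background (93.2%, against 55.1% of all genes). They comprised 8 of 9 genes of the cytosolic chaperonin TRiC, 9 of 9 Hsp90 co-chaperones, 12 of 12 Hsp70 exchange factors and partners, 7 of 7 ER folding genes, 1 of 2 crystallins and 4 of 5 others. Counted with the Hsp90 co-chaperones was Trap1, which is itself a mitochondrial Hsp90. The TRiC exception was Cct6b (5.19 ± 0.10, SD, n = 3), a testis form. Cryab, the crystallin related to Hspb1, was not above background, with 5.20, 4.97 and 7.10.

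Litter to litter variation of the members was like that of other genes in one respect. Among members above background, 7 of 49 had a range over the arrays above 1 log2 unit (14.3%, against 14.0% of all genes above background). The median SD was 0.32, and 0.26 for all genes above background. The 7 were Hspa1b, Hspb1, Hspb8, Dnaja2, Dnajb6, Dnajc17 and Dnajc19. In the probe sets used, replicate 1 was the low array for Hspa1b and Hspb1, replicate 2 the high array for Hspb8, and replicate 3 the array apart for the rest. For Hspb1 the place of replicate 3 varied with the probe set, as another gave 8.41, 9.43 and 8.25. The low replicate 3 of Dnajc17 was not seen in its other probe sets. The count was 3 without replicate 3, 4 without replicate 1, and 4 where the probe sets of each gene were averaged.

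The heat-inducible members differed in a shared direction between replicates 1 and 2, the pair of arrays that were otherwise close. The list held 18 textbook heat shock response genes, of which 15 were measured and 13 were above background. All 13 were higher on replicate 2 than on replicate 1, against 17 of 36 other members above background (47.2%) and 46.3% of all genes above background. Their median difference was 0.26 log2 units, and it was 0.00 for the other members and -0.01 for all genes above background. The remaining listed genes, Bag3 and Hspa4l, were both lower on replicate 2, by -0.09 and -0.05. Each array is 1 litter, so no test of this difference exists, and the difference between these arrays was examined after the values were seen.

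The largest differences belonged to Hspa1b, which was 1.28 log2 units higher on replicate 2 (2.43-fold), Hspb8 with 1.13 (2.19-fold) and Hspb1 with 1.08 (2.12-fold). They held ranks 4, 8 and 10 among the differences of 9426 genes above background. Dnajb1 followed with 0.63 and Dnajb4 with 0.58. These 5 were the members beyond 0.5 log2 units, 5 of 49, where 1.60% of all genes above background exceeded that size. No member was lower by as much, against 1.52% of all genes. Hsph1 (0.43), Hsp90aa1 (0.26), Hspa8 (0.25) and Dnaja1 (0.23) differed by less, and Hspe1 (0.13), Dnajb6 (0.09) and Stip1 (0.07) lay near the 75th percentile of all genes above background (0.10).

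Different probe sets of a gene mostly gave the same direction. All 4 probe sets of Hspb1 were higher on replicate 2, by 1.01 to 1.11 log2 units, as were all 3 of Hspb8 (0.22 to 1.13), both of Dnajb1 (0.50 and 0.63) and all 4 of Hspa8 (0.19 to 0.69). For Hspa1b the size of the difference rested on the chosen probe set, as those below background were at 0.04 and 0.13. Hspa4 was an exception in direction, with its chosen probe set at 0.18 and the others at -0.02 and -0.10. Dnajb6, at 0.09 in its chosen probe set, had another above the threshold at -0.21, and a Dnajb4 probe set below the threshold was at -0.36. Over the threshold lay 31 probe sets of heat-inducible members, and 27 of them were higher on replicate 2, with a median of 0.26. For the other members this was 42 of 75, with a median of 0.03.

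**Figure D2:**
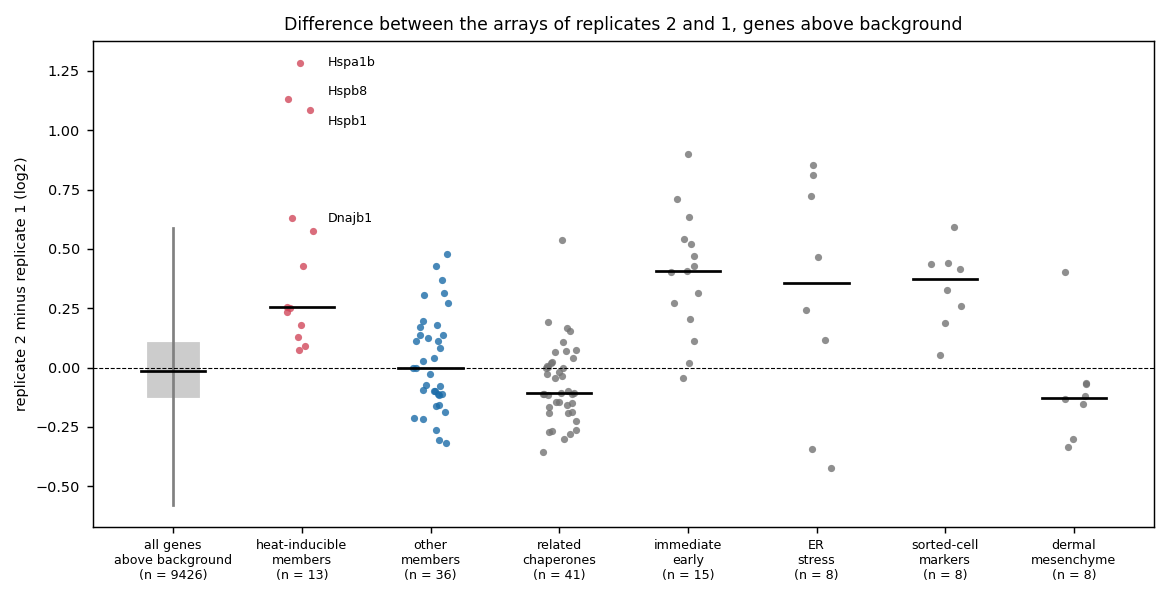
Log2 value on replicate 2 minus that on replicate 1 (vertical axis) for genes above background; points are genes, short black lines are medians, and for all 9426 genes the box spans the 25th to 75th and the grey line the 1st to 99th percentile. The 13 heat-inducible members all lie above 0, whereas the 36 other members are spread around it with a median of 0.00.

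Most immediate early and ER stress genes, and the epithelial markers, were also higher on replicate 2. Of 15 immediate early genes above background, 14 were higher on replicate 2 (median 0.41), with Atf3 at 11.08 and 11.98 on replicates 1 and 2. Of 8 ER stress genes above background, 6 were higher (median 0.35). Among them were Herpud1 (7.87 and 8.72) and Asns (8.32 and 9.04), a target of Atf4. The ER stress genes Edem1 (7.01 and 6.59) and Sel1l (10.13 and 9.78) were lower. Among the members, the ER chaperones Hspa5 and Hsp90b1 differed by 0.08 and -0.11. Of the 41 related chaperone genes above background 13 were higher on replicate 2 (median -0.11), and Chordc1, a heat shock gene that encodes an Hsp90 partner, was the single gene beyond 0.5 (9.86 and 10.40).

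All 8 markers of the sorted cells were also higher on replicate 2 (median 0.37), with Krt18 the furthest (8.35 and 8.94). Their summed level, as log2 of the sum, was 13.50, 13.83 and 14.03 on replicates 1, 2 and 3. Of 8 dermal mesenchyme genes above background 1 was higher on replicate 2 (median -0.13), and the summed level of that list was 14.56, 14.46 and 14.31. In such pools fewer cells of a type and less RNA per cell cannot be told apart. The part of this shift in the difference of the heat-inducible members was not tested, and neither was that of the number of sorted cells.

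On replicate 3 the heat-inducible members were close to the general shift of the array. Their median offset from the mean of the other arrays was 0.36 log2 units, against 0.24 for all genes above background and 0.36 for the other members. It was 0.15 where probe sets of a gene were averaged and 0.20 without cross-hybridising probe sets, and its sign turned after quantile normalization (-0.02), so no direction is given for it. On replicate 1 the offset was -0.52, against -0.11 for all genes above background and -0.16 for the other members. Over all 15 measured members it was -0.31 where probe sets were averaged and -0.33 after quantile normalization. In the values as deposited 12 of 13 members were below the mean of the other arrays on replicate 1, with Stip1 the exception. Above that mean were 12 of 36 other members and 3424 of 9426 genes above background. Most genes were thus below it as well.

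**Figure D3:**
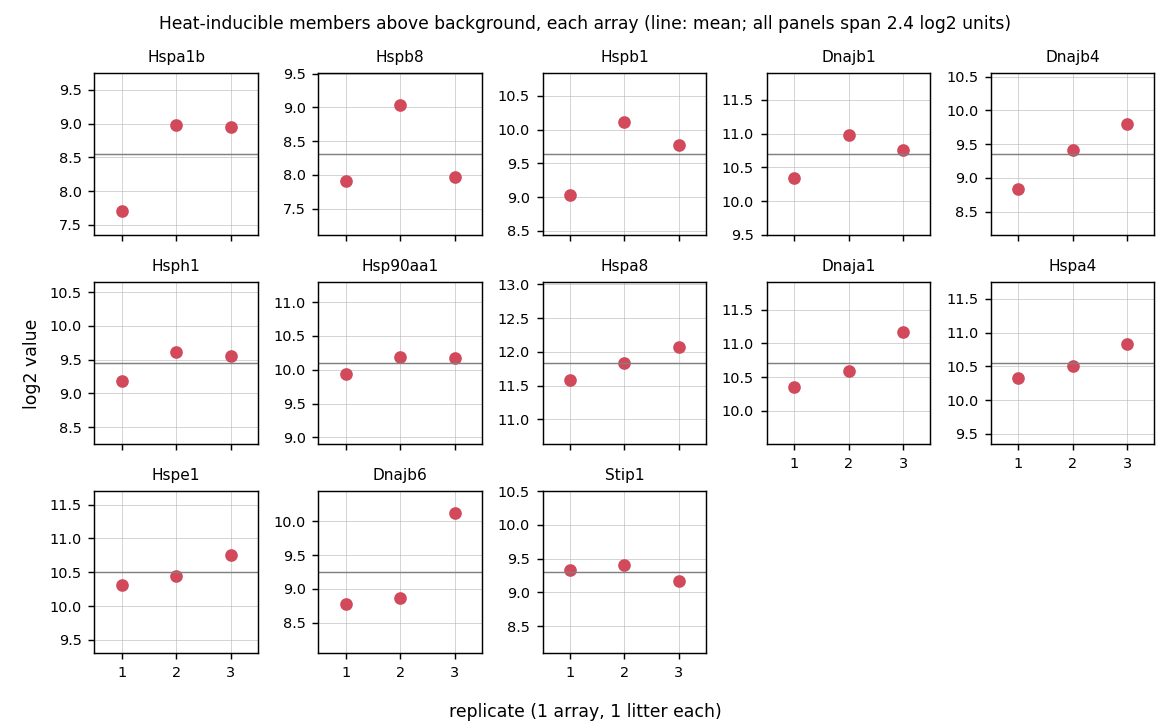
Log2 values (vertical axis) of the 13 heat-inducible members above background on the 3 arrays (horizontal axis), with the mean as a grey line and the same span of 2.4 log2 units in each panel. In the probe sets used, Hspa1b, Hspb1, Dnajb1, Hsph1 and Hsp90aa1 are low on replicate 1 and similar on the others. Hspb8 is high on replicate 2 alone, and Dnajb6 is high on replicate 3 alone. Another probe set of Dnajb1 (9.25, 9.76 and 9.13) and another of Hspb1 (8.41, 9.43 and 8.25), not shown, were lowest on replicate 3.

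Promoter sequences were compared because these members shared a direction. RefSeq windows of 300 bases (250 before to 50 after an annotated start, build GRCm38.p6) were found for 57 of the 69 members, and not for Hspa8 or Hsp90aa1 among others. They were searched on both strands for a pair of heat shock units head to head (GAANNTTC) or tail to tail (TTCNNGAA). Either pair occurred in 15.1% of all 32851 windows. It was found for 9 of 13 heat-inducible members with a window (Bag3, Dnaja1, Dnajb4, Dnajb6, Hspa1b, Hspb1, Hspb8, Hspe1 and Hsph1) and for 4 of 44 others (Dnaja4, Dnajc10, Dnajc27 and Hspb3). A gene was counted if any of its windows held a pair, so these counts of genes differ in unit from the 15.1% of windows. Counted by window, 15 of the 72 windows of all members held a pair. The list was made of known heat shock genes, so the count of 9 of 13 is not independent of it. Of the 5 members furthest up on replicate 2, all but Dnajb1 held such a pair. These 5 were picked by that difference and are all on the heat-inducible list. The stretches of the largest differences are shown with the paired units in capitals, 5′ to 3′ on the strand of the gene.

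Hspa1b, chr17:34959323-34959354, minus strand: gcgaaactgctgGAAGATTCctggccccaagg

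Hspb1, chr5:135887790-135887841, plus strand: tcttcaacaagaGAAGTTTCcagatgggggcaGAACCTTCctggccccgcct

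Hspb8, chr5:116422843-116422874, minus strand: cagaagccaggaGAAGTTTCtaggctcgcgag

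The pair of Hspa1b lay at positions -104 to -97 from the annotated start, those of Hspb1 at -117 to -110 and -97 to -90, and that of Hspb8 just past the start, at 2 to 9. A longer array of 3 alternating units (GAANNTTCNNGAA or its reverse complement, which contains both pairs) was rare, in 0.603% of all windows. The members that held it were Dnajb6, Hspe1 and Hsph1. Hspe1, whose promoter is shared with the Hsp60 gene Hspd1, carried 2 such arrays that overlap, at -89 to -77 and -84 to -72, and is shown for this run of alternating units.

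Hspe1, chr1:55088047-55088088, plus strand: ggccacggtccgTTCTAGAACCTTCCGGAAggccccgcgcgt

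Of the members with the longer array, Hsph1 was 0.43 higher on replicate 2, rank 255 of 9426, and Hspe1 and Dnajb6 were 0.13 and 0.09 higher, at ranks 1944 and 2564. Among members above background, the median difference was 0.45 log2 units for the 10 with either pair and -0.01 for the 30 with a window and no pair, and 9 of 10 against 14 of 30 were higher on replicate 2. Most of the 10 were also on the heat-inducible list, so the groupings overlap.

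The ER stress response element (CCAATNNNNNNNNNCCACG, both strands) occurred in 0.119% of all windows, 39 in number. Among the members it was found for Hspa5, Hsp90b1 and Dnajc3, all ER chaperones or co-chaperones, and it is shown in capitals for Hspa5 and Dnajc3. On replicate 2 Hspa5 was 0.08 log2 units above replicate 1, and Hsp90b1 and Dnajc3 were below it, by -0.11 and -0.32.

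Hspa5, chr2:34772013-34772055, plus strand: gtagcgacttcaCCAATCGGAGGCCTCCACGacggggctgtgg

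Dnajc3, chr14:118937815-118937857, plus strand: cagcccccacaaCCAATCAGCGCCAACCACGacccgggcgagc

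**Figure D4:**
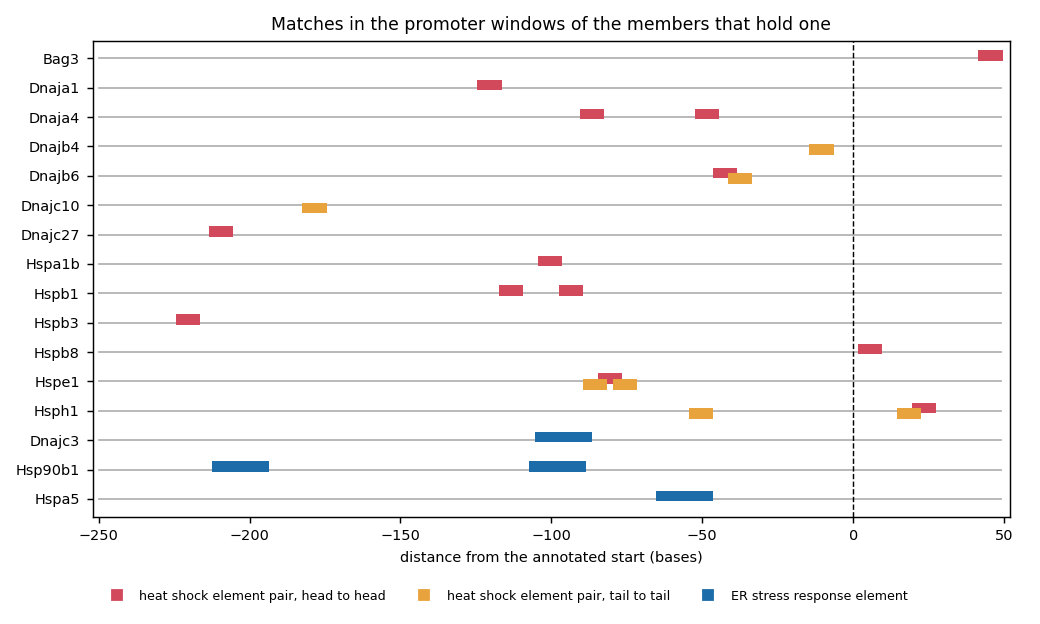
Positions of the matches relative to the annotated start (horizontal axis, bases; dashed line at the start) in the promoter windows of the 16 members that hold a heat shock element pair or an ER stress response element. The matches of Hspa1b and Hspb1 lie about 100 bases before the start, those of Hspe1 overlap, and the ER stress response elements lie in the windows of Dnajc3, Hsp90b1 and Hspa5.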

How the data were processed

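Log2 values per probe set were deposited by the authors; RMA and the affy package are named in the submitters' processing notes, with versions and settings not given in the sources used here. RMA compresses differences of weak probe sets. Per the labels' protocols, cDNA was amplified for 25 cycles before labelling, which can distort levels. A genome build for the array annotation is not given in the sources used here.

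Of 45141 probe sets, 28898 had 1 gene symbol in the platform annotation and were used, with the brightest probe set representing a gene. The mean of log2 value minus threshold was tested against 0 with limma 3.58.1 under R 4.3.3 (a single intercept, trended empirical Bayes, one-sided p, Benjamini-Hochberg over 17097 genes), after the fit was tested on simulated data. The simulation gave each gene independent noise of the same SD. It therefore does not cover the unequal SDs of the genes or the shared shift of replicate 3. The p-values leave out the uncertainty of the threshold. Levels of different genes were not ranked. Python 3.11.15, numpy 2.4.6, pandas 2.3.3 and matplotlib 3.10.9 were used.

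The members, gene lists and settings were chosen with earlier results of these data known. Values on each array are given for 20 preset symbols (16 measured), the 8 members above background with the largest range, and the 2 furthest above and below the other arrays on each array. Other genes were named after their values were seen. With 3 arrays, their number limits the precision. Alternatives were other backgrounds, probe set rules, scalings and variance models, a filter on low values, and leaving out each replicate.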

Additional observations from a re-analysis of the deposited data

How the results depend on the processing

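Settings kept the direction and the side of the threshold for most results. With all 69 members tested, 39 to 50 were above background, and 13 to 14 of 15 heat-inducible members and 34 to 41 of 44 related genes, while the share of all genes ran from 31.6% (brightest antigenomic control, 39 members) to 58.5% (without replicate 3, 50 members). With low genes left out, 46 of 46 members and 39 of 39 related genes left were above background, against 99.6% of all genes left, so these counts say little. Of the 49 members above background, 38 kept their call wherever fitted under the 11 alternatives and 11 lost it at least once (Dnaja3, Dnaja4, Dnajc2, Dnajc11, Dnajc16, Dnajc17, Dnajc22, Dnajc24, Hspa1b, Hspbap1 and Hspbp1). The median difference between replicates 2 and 1 of the measured heat-inducible members stayed between 0.23 and 0.26, and 13 were higher on replicate 2, under each probe set rule and scaling tried after the data were seen. The scalings could hardly change this difference, because the quantiles of replicates 1 and 2 already matched. Fits with 1 replicate left out rest on 2 arrays, so their adjusted p-values and calls are not comparable with those of 3 arrays. The count of members with a range above 1 log2 unit was 4 with the mean of probe sets and 3 to 5 with 1 replicate left out, fewer arrays giving a smaller range. The offset of heat-inducible members on replicate 3 was -0.0211 after quantile normalization and 0.0844 with each array centred, since both remove that array's general shift.

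Distances from the threshold turned negative as follows; both stricter backgrounds set a higher threshold. Against the brightest antigenomic control they were -0.61 for Dnaja4, -0.31 for Dnajc16, -0.64 for Dnajc17, -0.45 for Dnajc24, -0.81 for Hspbap1 and -0.0070 for Hspbp1. Against tissue-restricted genes they were -0.41 for Dnaja4, -0.11 for Dnajc16, -0.43 for Dnajc17, -0.24 for Dnajc24 and -0.60 for Hspbap1. With the mean of probe sets Hspa1b stood at -0.28, and without cross-hybridising probe sets Dnajc2 stood at -1.26, as other probe sets then represent them. No paired analysis was possible because there was a single group. The number of arrays and the spread of weak signals near background limit the calls of dim genes.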
